A study of Arabidopsis thaliana with 18 samples.

Results

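Seeds of the Arabidopsis thaliana line labelled tcp14 were compared with wild-type seeds after 24 h of imbibition, by sequencing of polyadenylated RNA. The comparison uses 6 of the 18 libraries of the series, 3 from imbibed tcp14-labelled seeds and 3 from imbibed wild-type seeds, chosen by their labels, and all 33602 loci of the deposited tables. The labels call the line a mutant with a gene knock out, give whole seed as the tissue, and state that imbibed seeds were dormant and lay on wet filter paper in the dark at 25 °C. Plants of all groups grew in soil at 21 °C. The dry tcp14-labelled seeds and dry wild-type seeds, 3 libraries each and not imbibed, serve to show which differences were already there before water uptake. The labels name neither the accession nor the allele or the kind of lesion, and no separate seed lots, so p-values measure the spread between these libraries. Level is given as counts of read pairs per 1000000 of the scaled library size (CPM), which compares 1 gene between libraries and not 1 gene with another.

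TCP14 codes for a class I TCP protein, a family of plant transcription factors that takes part in growth of the embryo and in germination. A dry seed stores transcripts of late maturation, among them those of storage proteins, oil body proteins, late embryogenesis abundant (LEA) proteins and small heat shock proteins. During imbibition these stored transcripts decay while genes of cell wall loosening, protein synthesis, cell division and chloroplasts come on, and abscisic acid (ABA) holds that program back while gibberellin (GA) promotes it.

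Counted pairs were 15605937 to 17100130 per imbibed tcp14-labelled library and 12170793 to 16979217 per imbibed wild-type library. A principal component of the 6 libraries with 77.1% of their variance parted the groups, at 34.1 to 60.4 for tcp14-labelled and -50.5 to -39.4 for wild-type libraries. The 12 markers of the seed embryo are storage protein, oil body protein, LEA and water channel genes. Their sum thus overlaps the list results below and is no separate measure of tissue. It was 115000 to 166000 CPM in imbibed tcp14-labelled and 47400 to 57600 CPM in imbibed wild-type libraries, with all 12 detected in each group. Green tissue markers summed to 1190 to 1240 CPM in imbibed tcp14-labelled and 1270 to 1360 CPM in imbibed wild-type libraries. Of 6 pollen markers, VGD1, VGDH1, PGA4, RALFL8 and RALFL9 were at 0 in all 6 libraries.

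The level of TCP14 itself (AT3G47620) went against the knock-out label, since the libraries labelled tcp14 held more of its transcript. It had 36.6, 36.00 and 30.9 CPM in imbibed tcp14-labelled seeds, against 13.7, 17.7 and 15.8 CPM in imbibed wild-type seeds (log2 fold change 1.14, SE 0.0906, adjusted p = 8.9e-10 by the quasi-likelihood test of edgeR). The groups did not overlap. In dry seeds it averaged 44.1 ± 0.501 CPM in tcp14-labelled and 6.86 ± 1.39 CPM in wild-type libraries (mean ± SD, n = 3 each), with a log2 fold change of 2.69. The difference between the groups was thus larger in dry seeds, and the interaction of line and imbibition was -1.55 on the log2 scale (SE 0.149, adjusted p = 9.4e-08 by edgeR). The counts do not show which part of the transcript the pairs covered. MPK8, a mitogen-activated protein kinase gene that gives its name to the other mutant line of the series, had 11.04, 11.6 and 9.84 CPM in imbibed tcp14-labelled seeds, against 11.1, 11.5 and 12.7 CPM in imbibed wild-type seeds, and was not called (log2 fold change -0.12, SE 0.0950, adjusted p = 0.317 by edgeR).

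Of 18061 genes with enough pairs to test, 9977 (55.2%) were called, which means an adjusted p under 0.05, with 4925 higher (27.3%) and 5052 lower (28.0%) in imbibed tcp14-labelled seeds. Small changes were common: 3222 of the higher and 1821 of the lower genes changed by less than 0.5 on the log2 scale. Large changes were mostly decreases, since 391 genes (2.16%) were called at 2-fold higher and 1755 (9.72%) at 2-fold lower. The 3 tcp14-labelled libraries lay apart from the 3 wild-type libraries for 10680 genes (59.1%), above them for 5071 (28.1%) and below them for 5609 (31.1%). These splits rest on scaling by TMM, which sets the bulk of genes level between libraries, with factors of 1.16 to 1.33 for imbibed tcp14-labelled and 1.56 to 1.60 for imbibed wild-type libraries. With library totals in its place the median of all genes moved to -0.331, and 1415 genes were called higher and 9790 lower, so that the higher share of calls was 12.6% in place of 49.4%. A change smaller than about that shift has a direction only relative to the bulk of genes. In bulk seed RNA, fewer cells of a type and less RNA per cell cannot be told apart.

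**Figure D1:**
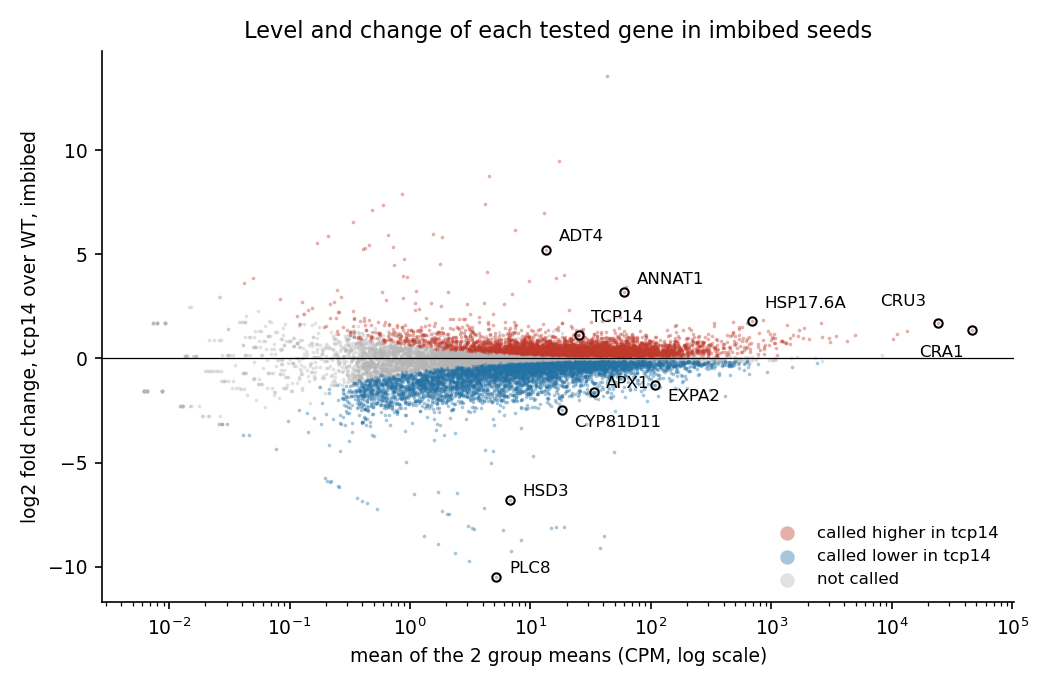
Each point is 1 of the tested genes; the horizontal axis is the mean of the 2 group means in CPM on a log scale, the vertical axis the log2 fold change of imbibed tcp14-labelled over imbibed wild-type seeds. CRU3 at 1.71 and CRA1 at 1.38 are the circled genes farthest to the right. Among points beyond about 5 on either side are genes with few or no pairs in 1 group, such as PLC8, whose fitted value depends on the prior count. ADT4, at 5.22, had 1616 pairs in imbibed tcp14-labelled and 50 in imbibed wild-type libraries.

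The storage protein transcripts, which code for the cruciferins and albumins that feed the seedling, were all higher. All 11 tested members were called higher, beside 27.3% of all tested genes, with a median log2 fold change of 1.31 against 0 over all tested genes, and 9 of them were at least 2-fold higher. They took 16.7%, 18.4% and 20.8% of counted pairs in imbibed tcp14-labelled libraries, against 8.13%, 9.60% and 9.22% in imbibed wild-type libraries, a share that no scaling factor touches. In dry seeds the share was 15.9% to 16.9% in tcp14-labelled and 16.0% to 16.6% in wild-type libraries, ranges that overlap. CRU3, a cruciferin, had 30044, 35897 and 45495 CPM in imbibed tcp14-labelled seeds, against 9679, 12298 and 12004 CPM in imbibed wild-type seeds (log2 fold change 1.71, SE 0.146, adjusted p = 2.4e-09 by edgeR). CRA1, another cruciferin, had 56339.7, 65314 and 80119.8 CPM in imbibed tcp14-labelled seeds, against 23346, 28245 and 26042 CPM in imbibed wild-type seeds (log2 fold change 1.38, SE 0.137, adjusted p = 2.4e-08). In neither gene did the groups overlap. SESA4, a seed storage albumin, averaged 960.1 ± 145 CPM in imbibed tcp14-labelled and 298 ± 27.4 CPM in imbibed wild-type seeds, with a log2 fold change of 1.69, and PAP85, a vicilin-like protein, averaged 18968 ± 3159 CPM in imbibed tcp14-labelled and 7652 ± 774 CPM in imbibed wild-type seeds, with a log2 fold change of 1.31. Imbibed libraries of the mpk8 line, which were set against the same wild-type libraries, gave storage proteins 16.0% to 16.2% of pairs.

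Oil body proteins, the oleosins and related coat proteins of lipid droplets, moved the same way. All 7 tested members were called higher, beside 27.3% of all tested genes, with a median log2 fold change of 0.82. OLEO4 had 1228, 1401 and 1788 CPM in imbibed tcp14-labelled seeds, against 571, 704 and 655 CPM in imbibed wild-type seeds, without overlap (log2 fold change 1.19, SE 0.107, adjusted p = 5.2e-09 by edgeR). OLEO1 averaged 4041 ± 766 CPM in imbibed tcp14-labelled and 2018 ± 201 CPM in imbibed wild-type seeds, with a log2 fold change of 1.002. Of enzymes that break down the stored oil, 3 of 19 were called higher and 11 lower, beside 27.3% and 28.0% of all tested genes. With library totals 0 of these enzymes were called higher and 16 lower. Among them PCK1, the phosphoenolpyruvate carboxykinase that turns oil carbon towards sugar, had 1307, 1265 and 1227 CPM in imbibed tcp14-labelled seeds, against 1744, 1599 and 1781 CPM in imbibed wild-type seeds (log2 fold change -0.43, SE 0.0580, adjusted p = 1.7e-06). PMDH2, a peroxisomal malate dehydrogenase, averaged 3.96 ± 0.525 CPM in tcp14-labelled and 10.99 ± 1.05 CPM in wild-type imbibed seeds, with a log2 fold change of -1.48.

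LEA proteins, hydrophilic proteins that protect the drying embryo, split into a large and a small group. Of 28 members tested 23 were called higher and 5 lower, beside 27.3% and 28.0% of all tested genes. Their median log2 fold change was 0.74. They took 3.32%, 3.23% and 3.73% of pairs in imbibed tcp14-labelled libraries, against 2.18%, 2.60% and 2.26% in imbibed wild-type libraries. M10 had 662, 732 and 953 CPM in imbibed tcp14-labelled seeds, against 279, 322 and 271 CPM in imbibed wild-type seeds (log2 fold change 1.43, SE 0.1001, adjusted p = 1.4e-10 by edgeR). The 5 that were lower are AT3G02480 and the dehydrins LTI30, ERD10, COR47 and ERD14, of which the last 4 are known for induction by cold or drought in vegetative tissue. COR47 had 14.3, 10.01 and 6.69 CPM in imbibed tcp14-labelled seeds, against 27.7, 24.1 and 27.3 CPM in imbibed wild-type seeds (log2 fold change -1.34, SE 0.239, adjusted p = 5.7e-05). LTI30 averaged 2.61 ± 0.0964 CPM in imbibed tcp14-labelled and 7.39 ± 0.337 CPM in imbibed wild-type seeds, with a log2 fold change of -1.49, and was also lower in dry seeds, at 262 ± 21.7 CPM in tcp14-labelled and 1110.3 ± 44.97 CPM in wild-type libraries. AT3G02480 and ERD14 are named here after their values were seen.

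The promoters of the LEA genes were searched for the core of a known ABA response element. The letters ACGTGTC, on either strand, were found in the 250 bases before the annotated start in 18 of the 28 genes (64.3%, 95% Wilson interval 45.8% to 79.3%) and in 4.58% of 17938 tested genes. All 18 are among the 23 genes called higher, and none of the 5 called lower holds these letters there. With 50 bases after the start added, 19 of the 28 genes held them. Other forms of the element were not searched for, so a gene without these letters may still hold one. Over all genes the share was 6.72% of those called higher and 4.06% of those called lower. For the 3 LEA genes with the largest increase among those with a match within 150 bases of the start, these 150 bases are shown 5′ to 3′ from the RefSeq genome TAIR10.1, each on the minus strand of its chromosome and ending at the base before the start, with the matching letters in capitals. EM6 holds them as the reverse complement, GACACGT.
RAB18: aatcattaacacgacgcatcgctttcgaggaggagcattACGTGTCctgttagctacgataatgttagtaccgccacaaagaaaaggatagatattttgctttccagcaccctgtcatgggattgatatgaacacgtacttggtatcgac
EM6: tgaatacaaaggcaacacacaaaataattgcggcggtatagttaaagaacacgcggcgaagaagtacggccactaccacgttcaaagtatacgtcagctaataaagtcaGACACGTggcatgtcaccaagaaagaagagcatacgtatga
AT3G53040: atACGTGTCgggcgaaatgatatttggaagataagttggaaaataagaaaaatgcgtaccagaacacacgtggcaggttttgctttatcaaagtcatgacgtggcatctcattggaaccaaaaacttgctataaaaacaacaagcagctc
The match begins 111 bases before the start in RAB18 (AT5G66400, chromosome 5), 41 in EM6 (AT2G40170, chromosome 2) and 148 in AT3G53040 (chromosome 3). Their log2 fold changes were 1.07, 0.92 and 0.91. A match describes letters and is not shown to be a binding site, and genes with and without one were compared after the calls were known.

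**Figure D2:**
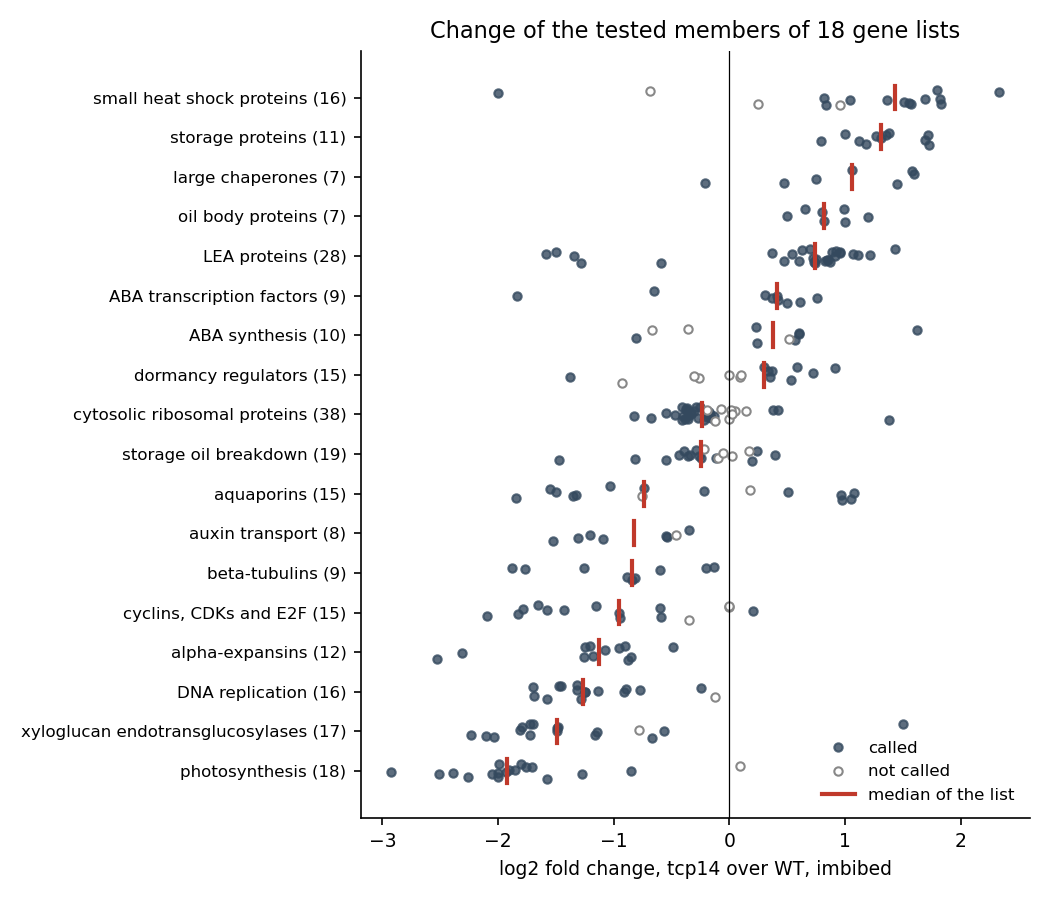
Each point is a tested member of 1 of 18 gene lists (number of members in brackets), placed by its log2 fold change of imbibed tcp14-labelled over imbibed wild-type seeds; filled points were called, open points were not, and the red bar is the list's median. Storage, oil body and LEA proteins and chaperones lie mostly right of 0, and all expansins, all replication genes and 17 of 18 photosynthesis genes lie left of it.

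Small heat shock proteins, chaperones that hold unfolded proteins and are stored in dry seeds, were higher after imbibition. Of 16 tested, 12 were called higher and 1 lower, beside 27.3% and 28.0% of all tested genes. Their median log2 fold change was 1.43. HSP17.6A had 978, 938 and 1282 CPM in imbibed tcp14-labelled seeds, against 281, 348 and 278 CPM in imbibed wild-type seeds (log2 fold change 1.82, SE 0.108, adjusted p = 1.1e-11 by edgeR). ATHSP22.0 had 32.4, 33.02 and 38.99 CPM in imbibed tcp14-labelled seeds, against 8.50, 6.55 and 5.60 CPM in imbibed wild-type seeds (log2 fold change 2.33, SE 0.117, adjusted p = 4.5e-13). The groups did not overlap in either gene. The 1 called lower was AT4G21870, with 2.90, 2.03 and 1.88 CPM in imbibed tcp14-labelled seeds, against 9.05, 7.92 and 10.5 CPM in imbibed wild-type seeds. HSP18.2 was not called, and its values were set by 1 library in each group, with 5.50, 0.0945 and 0.0553 CPM in tcp14-labelled and 9.16, 0 and 0.148 CPM in wild-type imbibed seeds. In dry seeds the same list ran the other way, with 0 called higher, 7 called lower and a median of -0.29, beside 6.12% and 5.27% of all genes called higher and lower when dry. The interaction was called for 13 of the 16, beside 33.2% of all tested genes, each time with a larger log2 fold change after imbibition than when dry.

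Among 7 large chaperones, 6 were called higher and 1 lower, beside 27.3% and 28.0% of all tested genes. With library totals 5 of them were called higher and 1 lower. Their summed share of counted pairs, which takes no scaling factor and so is not on the scale of the main calls, was lower, without overlap. It was 0.433%, 0.428% and 0.436% in imbibed tcp14-labelled libraries, against 0.496%, 0.487% and 0.471% in imbibed wild-type libraries. HSP101, which pulls proteins out of aggregates, had 225, 195 and 307 CPM in imbibed tcp14-labelled seeds, against 76.1, 92.5 and 71.7 CPM in imbibed wild-type seeds (log2 fold change 1.60, SE 0.128, adjusted p = 1.0e-09 by edgeR). HSP70b averaged 238 ± 46.3 CPM in imbibed tcp14-labelled and 79.7 ± 4.44 CPM in imbibed wild-type seeds, and HSP90.1 averaged 305 ± 58.2 CPM in tcp14-labelled and 112 ± 10.4 CPM in wild-type imbibed seeds. The member called lower was HSC70-1, the constitutive cytosolic form, with 2098, 2268 and 2263 CPM in imbibed tcp14-labelled seeds, against 2600.4, 2567 and 2486 CPM in imbibed wild-type seeds (log2 fold change -0.21, SE 0.0652, adjusted p = 0.00973). Of 17 heat stress transcription factors, 10 were called higher and 2 lower, which is 70.6% called beside 55.2% of all tested genes. Their median log2 fold change was 0.31, and became -0.02 with library totals. HSFA9, the seed-specific factor of late maturation, had 53.7, 48.8 and 58.1 CPM in imbibed tcp14-labelled seeds, against 22.1, 25.9 and 22.7 CPM in imbibed wild-type seeds (log2 fold change 1.19, SE 0.0751, adjusted p = 3.1e-11). HSFA3 was lower, at 0.128 ± 0.0159 CPM in tcp14-labelled and 0.833 ± 0.186 CPM in wild-type imbibed seeds.

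**Figure D3:**
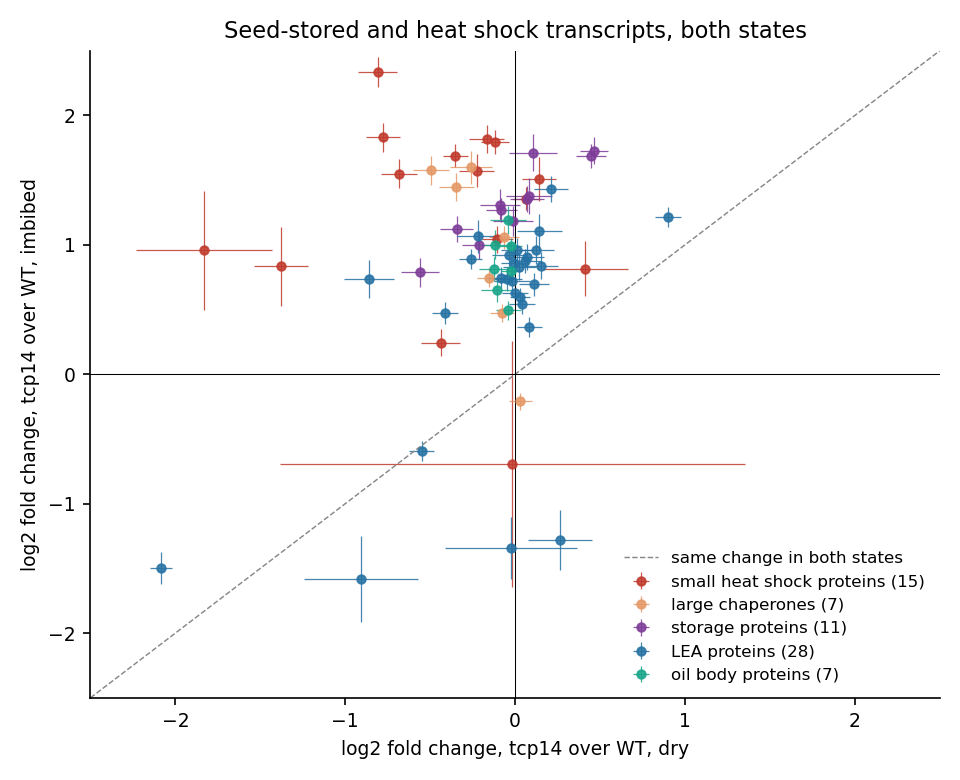
Members of 5 lists with at least 1 CPM in a dry group, by their log2 fold change of tcp14-labelled over wild-type seeds when dry (horizontal) and after imbibition (vertical); bars are SE and the dashed line marks an equal change in both states. Most points lie near 0 or to its left on the horizontal axis and above 0 on the vertical axis, with ATHSP22.0 highest at 2.33 imbibed and -0.81 dry.

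Genes of ABA action differed in both directions. Of 10 genes of ABA synthesis 6 were called higher and 1 lower, which is 70% called beside 55.2% of all tested genes. Their median log2 fold change was 0.38, and 0.05 with library totals. NCED6 and NCED9 code for 9-cis-epoxycarotenoid dioxygenases, which make the ABA precursor. NCED6 had 1.06, 0.709 and 1.27 CPM in imbibed tcp14-labelled seeds, against 0.197, 0.264 and 0.482 CPM in imbibed wild-type seeds (log2 fold change 1.62, SE 0.363, adjusted p = 6.3e-04 by edgeR), without overlap. NCED9 had 4.35, 4.44 and 5.09 CPM in imbibed tcp14-labelled seeds, against 3.26, 2.90 and 2.93 CPM in imbibed wild-type seeds (log2 fold change 0.60, SE 0.117, adjusted p = 1.5e-04), a call that was lost with library totals. CYP707A3, an ABA 8′-hydroxylase that degrades ABA, was lower, with 1.54, 1.56 and 1.44 CPM in imbibed tcp14-labelled seeds, against 4.52, 3.64 and 4.15 CPM in imbibed wild-type seeds (log2 fold change -1.44, SE 0.199, adjusted p = 2.4e-06). CYP707A1 was lower as well, with a log2 fold change of -0.60, and CYP707A2 was called slightly higher at 0.16 and called lower at -0.17 with library totals.

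Of 12 ABA receptor genes 4 were called higher and 6 lower, which is 83.3% called beside 55.2% of all tested genes. PYL1, PYL2 and PYL6 fell, with log2 fold changes of -1.35, -1.31 and -1.35, while PYL13 rose by 1.20. PYL2 had 4.003, 2.41 and 2.88 CPM in imbibed tcp14-labelled seeds, against 7.79, 6.18 and 9.05 CPM in imbibed wild-type seeds. Of 12 phosphatases and kinases downstream of the receptors, 8 were called higher and 2 lower, again 83.3% called. With library totals 3 were called in each direction. HAI2 and AHG1 are phosphatases of type 2C that restrain ABA signalling. HAI2 had 69.98, 64.2 and 74.99 CPM in imbibed tcp14-labelled seeds, against 37.2, 39.9 and 34.3 CPM in imbibed wild-type seeds (log2 fold change 0.91, SE 0.0676, adjusted p = 3.2e-10 by edgeR). AHG1 averaged 167 ± 9.47 CPM in imbibed tcp14-labelled and 108 ± 12.8 CPM in imbibed wild-type seeds, with a log2 fold change of 0.62. OST1, a kinase that carries the ABA signal in guard cells, was lower, with 1.14, 0.850 and 0.774 CPM in tcp14-labelled and 3.03, 2.90 and 3.34 CPM in wild-type imbibed seeds (log2 fold change -1.73, SE 0.215, adjusted p = 5.9e-07).

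All 9 ABA-related transcription factors tested were called, 7 higher and 2 lower, with a median log2 fold change of 0.42 that was 0.09 with library totals. ABF4 had 83.2, 72.7 and 61.2 CPM in imbibed tcp14-labelled seeds, against 41.3, 52.1 and 49.3 CPM in imbibed wild-type seeds (log2 fold change 0.61, SE 0.0913, adjusted p = 6.7e-06 by edgeR). ABI4 was lower, with 22.3, 19.7 and 19.8 CPM in imbibed tcp14-labelled seeds, against 32.7, 29.9 and 34.8 CPM in imbibed wild-type seeds (log2 fold change -0.65, SE 0.0992, adjusted p = 7.9e-06), and ABF3 was lower, at -1.84. ABI3 and ABI5, which drive seed maturation and hold back germination, were called higher by 0.37 and 0.50; both are named after their values were seen. Of 15 dormancy regulators 8 were called higher and 1 lower, which is 60% called beside 55.2% of all tested genes. The balance turned to 4 higher and 6 lower with library totals. DOG1, a main regulator of dormancy, stood at few CPM after imbibition, with 2.42, 2.08 and 1.88 in tcp14-labelled and 0.944, 1.06 and 1.37 in wild-type seeds (log2 fold change 0.91, SE 0.171, adjusted p = 1.0e-04), and averaged 48.6 ± 3.92 CPM in dry tcp14-labelled and 46.3 ± 1.01 CPM in dry wild-type seeds. SOM, a zinc finger protein that represses germination in the dark, had 258, 297 and 318 CPM in imbibed tcp14-labelled seeds, against 175, 196 and 159 CPM in imbibed wild-type seeds (log2 fold change 0.72, SE 0.0697, adjusted p = 1.5e-08). SPT, a bHLH factor that acts on dormancy in the cold, was the one called lower, with 8.88, 7.27 and 6.53 CPM in tcp14-labelled and 19.9, 18.96 and 20.4 CPM in wild-type imbibed seeds (log2 fold change -1.38, SE 0.143, adjusted p = 4.5e-08).

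Of 10 GA synthesis genes tested, 4 were called higher and 2 lower, which is 60% called beside 55.2% of all tested genes, and 2 were higher and 4 lower with library totals. The 2 lower genes code for the GA 3-oxidases that make active GA. GA3OX2 had 2.68, 1.94 and 1.22 CPM in imbibed tcp14-labelled seeds, against 8.50, 7.81 and 11.4 CPM in imbibed wild-type seeds (log2 fold change -2.22, SE 0.217, adjusted p = 2.3e-07 by edgeR). GA3OX1 had 1.14, 0.661 and 0.885 CPM in imbibed tcp14-labelled seeds, against 2.71, 2.85 and 4.01 CPM in imbibed wild-type seeds (log2 fold change -1.82, SE 0.287, adjusted p = 2.8e-05). Neither gene had a pair in the 6 dry libraries of these lines. The early enzyme gene GA3, ent-kaurene oxidase, was higher, with 158, 170.0 and 184 CPM in tcp14-labelled and 107, 116 and 109 CPM in wild-type imbibed seeds (log2 fold change 0.63, SE 0.0528, adjusted p = 2.1e-09). Of 9 tested genes of GA perception and DELLA repressors, 2 were called higher and 1 lower. That is 33.3% called, beside 55.2% of all tested genes. The receptors GID1A and GID1C rose by 0.79 and 0.64. RGL1, a DELLA repressor of GA responses, fell to 1.11 ± 0.302 CPM in tcp14-labelled seeds, against 2.92 ± 0.338 CPM in wild-type seeds. Of 6 GASA peptide genes, many of which respond to GA, 2 were called higher and 4 lower. GASA4 had 9.63, 5.48 and 6.42 CPM in imbibed tcp14-labelled seeds, against 29.9, 25.5 and 29.6 CPM in imbibed wild-type seeds (log2 fold change -1.97, SE 0.158, adjusted p = 2.6e-09), and the seed-stored GASA2 rose by 1.35.

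Alpha-expansins, which let cell walls creep, and most xyloglucan endotransglucosylases were lower. All 12 tested alpha-expansins were called lower, with a median log2 fold change of -1.13, beside 28.0% of all tested genes called lower. They took 0.0515%, 0.0420% and 0.0295% of pairs in imbibed tcp14-labelled libraries, against 0.110%, 0.0977% and 0.113% in imbibed wild-type libraries. EXPA2, which is expressed in the endosperm of germinating seeds, had 74.7, 69.5 and 46.1 CPM in imbibed tcp14-labelled seeds, against 158, 143 and 156 CPM in imbibed wild-type seeds (log2 fold change -1.26, SE 0.129, adjusted p = 3.5e-08 by edgeR). EXPA3 averaged 47.2 ± 8.08 CPM in imbibed tcp14-labelled and 112 ± 5.75 CPM in imbibed wild-type seeds. Of 17 xyloglucan endotransglucosylases, which cut and rejoin wall polymers, 1 was called higher and 15 lower, with a median of -1.49. With library totals 1 was called higher and 16 lower. Their summed share of counted pairs takes no scaling factor, and so is not on the scale of the main calls. It was 0.123%, 0.119% and 0.130% in imbibed tcp14-labelled libraries, against 0.127%, 0.124% and 0.126% in imbibed wild-type libraries, and these overlap. The member called higher was XTH25, which averaged 800.1 ± 147 CPM in imbibed tcp14-labelled and 283 ± 25.9 CPM in imbibed wild-type seeds, and was named after its values were seen. XTH4 had 7.13, 4.39 and 3.98 CPM in imbibed tcp14-labelled seeds, against 21.99, 23.1 and 22.3 CPM in imbibed wild-type seeds (log2 fold change -2.10, SE 0.173, adjusted p = 1.0e-08). Of 5 endo-beta-mannanases, which cut wall mannans, 1 was called higher and 2 lower. MAN1 was the higher one, at 1.57 (adjusted p = 0.0251 by edgeR), and lost the call without tcp14-labelled library 2, wild-type library 1 or wild-type library 3, and with library totals. MAN7, of the endosperm, had 47.2, 44.5 and 41.04 CPM in tcp14-labelled and 64.8, 64.7 and 66.9 CPM in wild-type imbibed seeds (log2 fold change -0.56, SE 0.0589, adjusted p = 4.9e-08). Endosperm markers did not move as one, since EPR1 (AT2G27380) and NCED6 were higher and EXPA2 and MAN7 lower, and their sum was 4760 to 6730 CPM in tcp14-labelled and 2770 to 3580 CPM in wild-type imbibed libraries. ZOU was at 0. The seed coat markers summed to 5.59 to 6.82 CPM in tcp14-labelled and 9.82 to 12.2 CPM in wild-type imbibed libraries. Of these 4 markers, 3 were at 0 in tcp14-labelled and 2 in wild-type imbibed libraries, TT10 and TT12 in both, so the sums rest on few genes. The part of tissue make-up in these results was not tested.

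DNA replication and cell cycle genes were lower too. Of 16 replication genes 0 were called higher and 15 lower, beside 27.3% and 28.0% of all tested genes. Their median log2 fold change was -1.27. MCM6, a subunit of the replicative helicase, had 4.40, 2.65 and 2.38 CPM in imbibed tcp14-labelled seeds, against 9.87, 8.34 and 10.2 CPM in imbibed wild-type seeds (log2 fold change -1.58, SE 0.195, adjusted p = 5.2e-07 by edgeR). CDT1A, which licenses replication origins, had 2.99, 1.94 and 1.83 CPM in imbibed tcp14-labelled seeds, against 7.28, 6.55 and 8.12 CPM in imbibed wild-type seeds (log2 fold change -1.69, SE 0.211, adjusted p = 2.0e-06). Of 15 cyclins, cyclin-dependent kinases and E2F factors, 1 was called higher and 11 lower. CYCD3;1, a cyclin that drives entry into the cycle, had 1.06, 0.756 and 0.387 CPM in tcp14-labelled and 3.74, 2.96 and 3.004 CPM in wild-type imbibed seeds (log2 fold change -2.10, SE 0.289, adjusted p = 2.3e-06). All 9 beta-tubulins were called lower, among them TUB4 with 58.3, 48.99 and 48.9 CPM in tcp14-labelled and 106, 84.6 and 97.7 CPM in wild-type imbibed seeds (log2 fold change -0.89, SE 0.0790, adjusted p = 4.9e-09). Of 38 cytosolic ribosomal protein genes 3 were called higher and 27 lower, with a median of -0.23. Among the most abundant lower genes was the ribosomal protein gene AT5G20290, with 742, 690.3 and 689 CPM in imbibed tcp14-labelled seeds, against 858, 826 and 861 CPM in imbibed wild-type seeds.

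**Figure D4:**
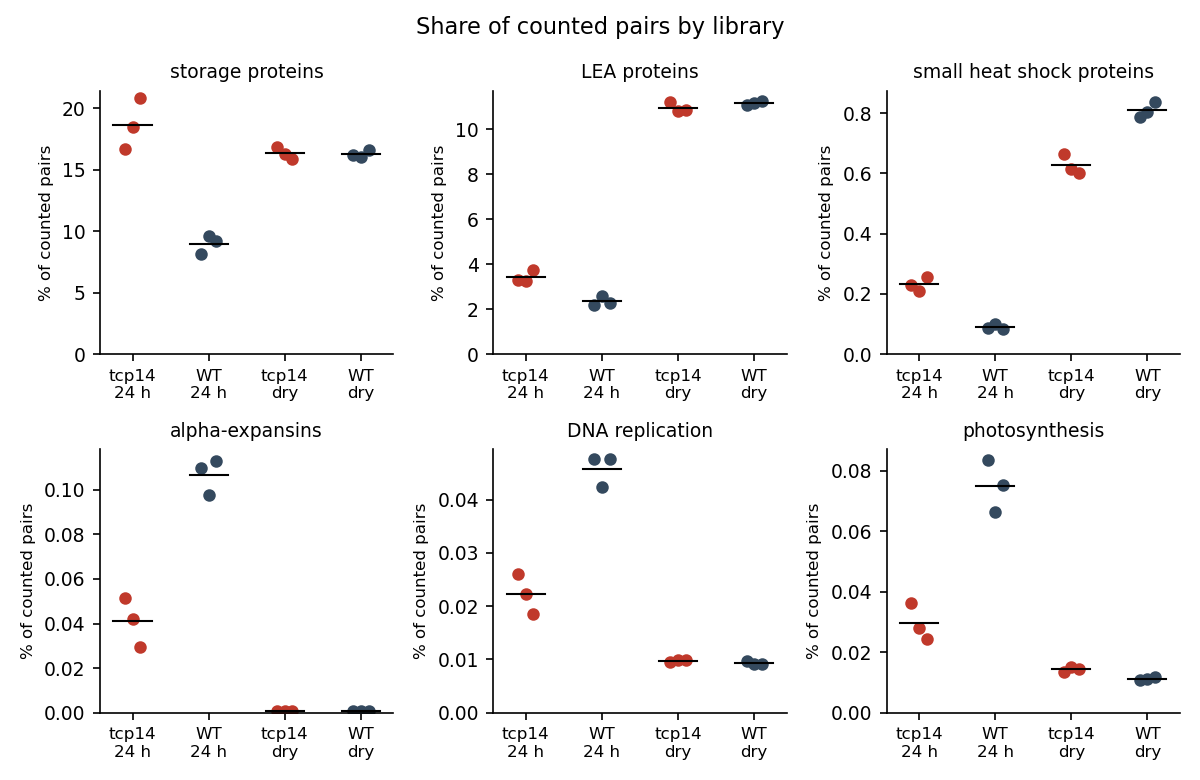
Share of counted pairs (%) taken by 6 gene lists in each library of imbibed tcp14-labelled (red), imbibed wild-type (dark), dry tcp14-labelled and dry wild-type seeds; lines are means of 3. In all 6 lists the imbibed groups do not overlap, and storage proteins hold 16.7% to 20.8% in imbibed tcp14-labelled and 8.13% to 9.60% in imbibed wild-type libraries.

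Photosynthesis genes, at low levels in these dark-kept seeds, had the lowest median of the lists. Of 18 tested, 0 were called higher and 17 lower, with a median of -1.92, and 16 were at least 2-fold lower, beside 9.72% of all tested genes. PORB, which reduces protochlorophyllide in the light, had 5.67, 3.07 and 6.80 CPM in imbibed tcp14-labelled seeds, against 24.9, 23.4 and 25.6 CPM in imbibed wild-type seeds (log2 fold change -2.26, SE 0.191, adjusted p = 2.1e-09 by edgeR). LHCB1.3, a light-harvesting protein, had 2.24, 0.425 and 0.277 CPM in imbibed tcp14-labelled seeds, against 9.95, 3.75 and 3.86 CPM in imbibed wild-type seeds (log2 fold change -2.51, SE 0.514, adjusted p = 2.6e-04). In each group the library numbered 1 was the highest for LHCB1.3. APE2, a triose phosphate translocator of plastids, had 1.72, 1.65 and 1.55 CPM in tcp14-labelled and 9.91, 8.45 and 9.83 CPM in wild-type imbibed seeds. Phytochrome genes went the other way by small amounts, with 5 of 5 called higher, though PHYA, PHYC and PHYE turned to slightly negative values with library totals. PHYD had 42.2, 40.6 and 44.7 CPM in imbibed tcp14-labelled seeds, against 29.7, 29.7 and 30.9 CPM in imbibed wild-type seeds (log2 fold change 0.50, SE 0.0505, adjusted p = 3.2e-08). Of 11 clock genes 6 were called higher and 0 lower, which is 54.5% called beside 55.2% of all tested genes. Their median was 0.32, and -0.01 with library totals.

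Transport and redox genes were mixed. Of 15 aquaporins 5 were called higher and 8 lower, which is 86.7% called beside 55.2% of all tested genes. PIP2;1 and PIP2;8, water channels of the plasma membrane, were lower, with log2 fold changes of -1.55 and -1.84. Of 8 auxin transport genes 0 were called higher and 7 lower. PIN2 had 13.2, 12.05 and 8.90 CPM in imbibed tcp14-labelled seeds, against 28.1, 25.1 and 31.9 CPM in imbibed wild-type seeds (log2 fold change -1.31, SE 0.122, adjusted p = 8.7e-09 by edgeR). APX1, a cytosolic ascorbate peroxidase, had 21.2, 14.98 and 12.8 CPM in imbibed tcp14-labelled seeds, against 51.9, 46.8 and 52.5 CPM in imbibed wild-type seeds (log2 fold change -1.62, SE 0.176, adjusted p = 8.6e-08). The seed antioxidant PER1, a peroxiredoxin, was higher, at 1612 ± 166 CPM in imbibed tcp14-labelled and 923 ± 91.6 CPM in imbibed wild-type seeds. Of 7 genes of raffinose sugars 4 were called higher and 3 lower. GOLS1, a galactinol synthase, rose by 1.19, and AGAL2, an alpha-galactosidase, fell to 2.07 ± 0.501 CPM in tcp14-labelled seeds, against 12.9 ± 1.27 CPM in wild-type seeds. Of 18 jasmonate genes 8 were called in each direction, and 2 higher and 10 lower with library totals.

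Other TCP genes changed little or at low level. Of 9 class I genes 3 were called higher, TCP14 included, and 2 lower, which is 55.6% called beside 55.2% of all tested genes, and 1 was higher and 3 lower with library totals. TCP9 had 0.352, 0.189 and 0.0553 CPM in imbibed tcp14-labelled seeds, against 0.905, 0.792 and 1.19 CPM in imbibed wild-type seeds (log2 fold change -2.19, SE 0.474, adjusted p = 4.6e-04 by edgeR). TCP20 was not called, with 11.3, 12.3 and 13.1 CPM in tcp14-labelled and 11.4, 11.99 and 10.2 CPM in wild-type imbibed seeds. Of 8 class II genes 0 were called higher and 5 lower, and the 4 with the largest change had log2 fold changes of -0.61 (TCP5), -0.57 (TCP10), -0.40 (TCP3) and -0.34 (TCP2). TCP3 lost its call without tcp14-labelled library 1, and TCP2 without tcp14-labelled library 3 or wild-type library 1. The call of TCP23 was lost without tcp14-labelled library 1 or wild-type library 2 or 3, and that of TCP22 without tcp14-labelled library 2 or 3 or wild-type library 1. The class I TCP motif GTGGGNCC, on either strand, was found in the 250 bases before the start of 1.26% of genes called higher, 1.72% of genes called lower and 1.32% of all tested.

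Of the 24 genes with the largest changes by the naming rule, 7 are members of the lists above, among them ATHSP22.0, HSP17.6A, CRU3, SESA4, AGAL2 and LHCB1.3, and the other 17 are in none of the lists. HSD2 and HSD3, hydroxysteroid dehydrogenases, were lower. HSD2 had 2 pairs over the imbibed tcp14-labelled libraries, against 834 over the imbibed wild-type libraries, which is 362-fold higher in wild type after scaling (95% exact interval 100.0 to 2997, counting error only). HSD3 had 0.132, 0.0945 and 0.111 CPM in imbibed tcp14-labelled seeds, against 12.1, 13.5 and 14.4 CPM in imbibed wild-type seeds (log2 fold change -6.79, SE 0.216, adjusted p = 9.7e-16 by edgeR). PLC8, a phospholipase C, had no pair in the imbibed tcp14-labelled libraries, against 10.5, 9.82 and 10.98 CPM in imbibed wild-type seeds, at least 215.6-fold lower when 3 pairs over the group are taken as the floor. CYP81D11, a cytochrome P450, had 4.49, 5.95 and 6.25 CPM in tcp14-labelled and 29.4, 32.6 and 30.4 CPM in wild-type imbibed seeds (log2 fold change -2.48, SE 0.0948, adjusted p = 2.4e-15). On the other side ADT4, an arogenate dehydratase of phenylalanine synthesis, had 21.9, 27.2 and 29.9 CPM in imbibed tcp14-labelled seeds, against 0.708, 0.686 and 0.705 CPM in imbibed wild-type seeds (log2 fold change 5.22, SE 0.200, adjusted p = 2.4e-15). ANNAT1, an annexin that binds membranes with calcium, had 94.5, 103 and 126 CPM in imbibed tcp14-labelled seeds, against 11.8, 13.1 and 10.9 CPM in imbibed wild-type seeds (log2 fold change 3.18, SE 0.107, adjusted p = 1.9e-16). AT3G60950 had 92.6, 96.9 and 70.7 CPM in imbibed tcp14-labelled seeds and no pair in imbibed wild-type seeds, at least 2062-fold higher by the same floor. Of 50-base words read along AT3G60950 every 25 bases, 229 of 232 also occur elsewhere in the genome, and pairs with several equally good hits were left out of the deposited counts, so its level is uncertain. TIF3C2, a subunit of a translation initiation factor, has none of 102 such words elsewhere, and had 8.14, 7.65 and 9.29 CPM in imbibed tcp14-labelled seeds, against 0, 0.0528 and 0.0742 CPM in imbibed wild-type seeds. Its 515 pairs in tcp14-labelled and 3 pairs in wild-type libraries make it 197.5-fold higher (95% exact interval 67.2 to 961, adjusted p = 1.5e-13 by edgeR).

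Genes that differed strongly in dry seeds as well lay on 2 of the 5 chromosomes for the most part. The dry comparison called 2058 genes (11.4%), and 1347 without dry wild-type library 2; the shares that follow use all libraries. Of genes called higher after imbibition, 565 were also called higher in dry seeds, which is 11.5% of the imbibed and 51.1% of the dry list. Of genes called lower 317 were also called lower in dry seeds, which is 6.27% and 33.3%. Over all tested genes 6.12% were called higher and 5.27% lower when dry, and 27.3% and 28.0% after imbibition. The shares of the lower genes thus lay near those of all genes. Opposite calls in dry seeds were made for 337 of the 4925 genes called higher after imbibition and 196 of the 5052 called lower. The interaction was called for 5991 genes (33.2%), positive in 3475 (19.2%) and negative in 2516 (13.9%). It was called for 63.9% of the genes called higher and 43.0% of those called lower. It uses the same imbibed libraries as those calls, which by itself can raise these 2 shares. At least 2-fold apart in the same direction in both states were 172 genes, 0.952% of those tested. Of these, 47 lay on chromosome 1, which is 1.0% of its tested genes, and 105 on chromosome 3 (2.91%), against 3 on chromosome 2 (0.108%), 3 on chromosome 4 (0.112%) and 13 on chromosome 5 (0.31%), and 1 had no chromosome in the annotation. The share of genes called after imbibition alone differed far less, at 53.5% to 57.2% for the 5 chromosomes. Among the 60 loci on each side of TCP14, 74 were tested and 8 (10.8%) were at least 2-fold apart in both states, HSD2, HSD3 and PLC8 among them. The labels do not say whether both lines share an accession, and whether sequence differences between the lines lowered or raised the pairs counted for such genes, with no or few pairs in 1 line, was not tested. ADT4 on chromosome 3 averaged 4.39 ± 0.319 CPM in dry tcp14-labelled and 0.155 ± 0.0459 CPM in dry wild-type seeds.

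**Figure D5:**
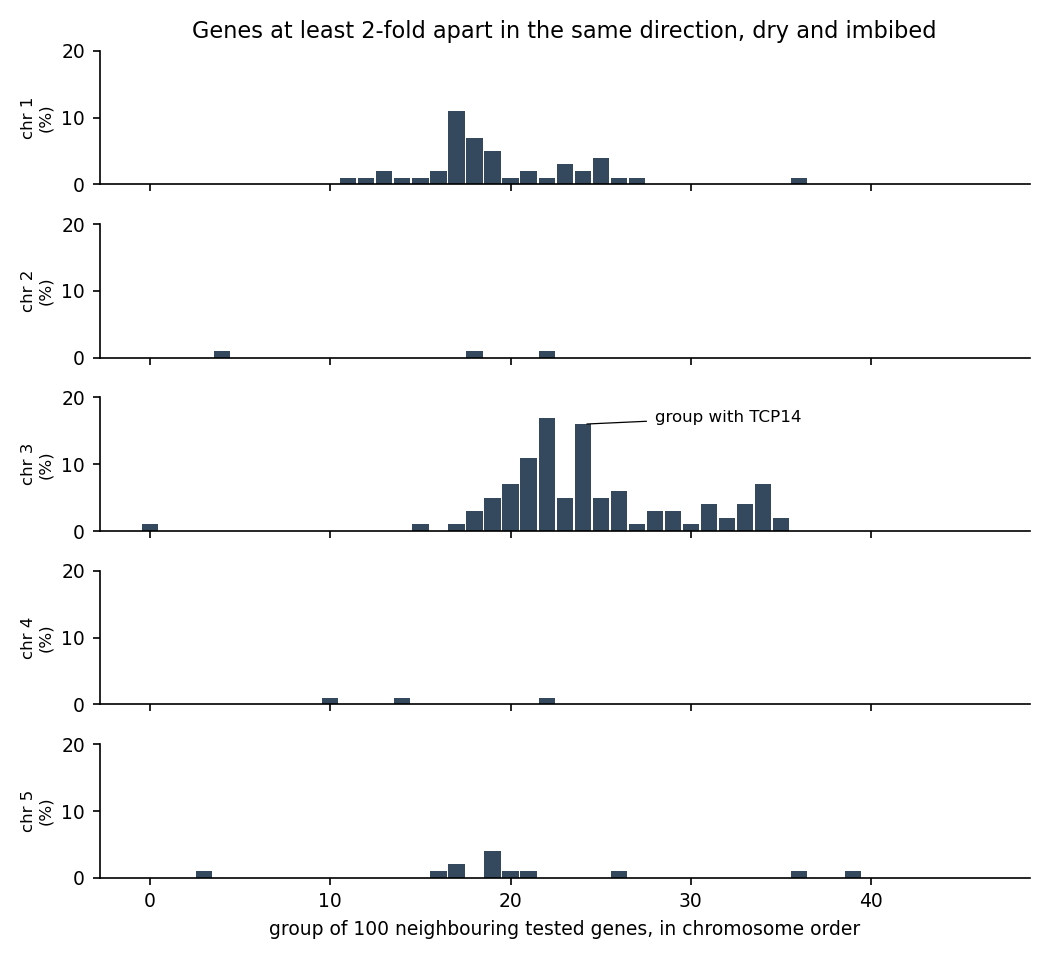
Percent of tested genes that were called and at least 2-fold apart in the same direction in dry and in imbibed seeds, in groups of 100 neighbouring tested genes along each chromosome (the last group of a chromosome is smaller). On chromosome 3 the group that holds TCP14 had 16 such genes and the highest group 17, and on chromosome 1 the highest group had 11.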

How the data were processed

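Polyadenylated RNA of seeds was read as stranded paired-end libraries and mapped to TAIR10 with TopHat2 and Bowtie2, per the labels and the submitters' processing notes, with no versions given in the sources used here. Per the file headers, the deposited values are raw counts of properly paired read pairs per transcript model, from which pairs with several equally good hits were left out, so genes with near-identical copies are undercounted. From the counts, genes passing filterByExpr were fitted over all 18 libraries in 6 groups with the quasi-likelihood test of edgeR 4.0.16 (limma 3.58.1, R 4.3.3) and TMM scaling, with Benjamini-Hochberg adjustment over 18061 genes; a call is an adjusted p under 0.05. SE was taken as the size of the log2 fold change over the root of F. The contrasts were tcp14-labelled minus wild type after imbibition, the same when dry, and their difference (the interaction). For a gene with no pair in a group, 3 pairs summed over its libraries served as the limit, and limits and intervals cover counting error only. Imbibed libraries held 12170793 to 17100130 counted pairs.

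The libraries compared, and the gene lists, were chosen with earlier results of these data known. The 173 named genes are TCP14 and MPK8; the 12 that increased most and the 12 that decreased most, if called, symbol-bearing, at 5 CPM or more where higher, and without overlapping libraries; the 6 most abundant called ones in either direction; and from every list the called members that changed most, 4 at most. Cytosolic ribosomal protein genes were taken from product names. Symbols and promoters came from the RefSeq annotation of TAIR10.1, in which 97.7% of loci were found, and coordinates are not given because the builds are named differently. The search also covered GTGGNCCC, AAACCCTA and GAANNTTC. On simulated data, drawn for the imbibed comparison with 18061 genes, 100 genes were changed at each of 2 sizes and all others were left unchanged. There 68% of 1.5-fold and 95% of 2-fold changes were found, and 4.12% of calls were of unchanged genes. Since 55.2% of genes were called in the real data, these shares do not carry over to the calls made here. Pairs over overlapping genes could be split between them. Alternatives were DESeq2 1.42.0 size factors and its Wald test, library totals, no filter, a 2-fold minimum, the compared groups alone, a replicate block, single reads and each library left out, with the loci of chromosomes 1 and 3 left out added after seeing the data.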

Additional observations from a re-analysis of the deposited data

Results flagged for a closer look

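For 6 named genes the call in imbibed seeds was opposite to that in dry seeds, and the interaction was itself called. ATHSP22.0 had log2 fold changes of 2.33 in imbibed and -0.81 in dry tcp14-labelled over wild-type seeds, an interaction of 3.14 (SE 0.164, adjusted p = 1.9e-11 by edgeR). HSP23.6-MITO, a small heat shock protein of mitochondria, had 1.83 and -0.78, an interaction of 2.61 (SE 0.151, adjusted p = 5.2e-11). HSP70b had 1.57 and -0.49, an interaction of 2.07, and HSP90.1 had 1.45 and -0.34, an interaction of 1.79. NCED9 had 0.60 and -0.64, an interaction of 1.24, with the imbibed call lost under library totals. PHYC had 0.24 and -0.26, an interaction of 0.502 (adjusted p = 3.9e-04), and its imbibed direction turned under library totals.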

How the results depend on the processing

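Library totals turned 6 named genes, with log2 fold changes of -0.17 for CYP707A2, -0.0471 for VAL1, -0.0652 for NLP8, -0.00674 for PHYA, -0.0401 for PHYE and -0.0916 for PHYC, ended the call of 8 others and made MPK8 a call at -0.45. Under the same setting 1415 genes were higher and 9790 lower after imbibition, and 887 interactions were positive and 6496 negative, since no factor then sets the bulk of genes level. A 2-fold minimum left 2146 imbibed calls (391 higher, 1755 lower), 377 dry calls (226 higher, 151 lower) and 1141 interactions (259 positive, 882 negative). Without chromosomes 1 and 3, an alternative added after seeing the data that leaves fewer genes, 5268 genes were called (2652 higher, 2616 lower). With each library of the groups compared left out in turn, imbibed calls numbered 8834 to 9837 (4327 to 4902 higher, 4485 to 4966 lower), dry calls 1347 to 1604 (721 to 931 higher, 626 to 798 lower) and interactions 5266 to 6433 (2980 to 3730 positive, 2099 to 2703 negative). The lowest dry count came without dry wild-type library 2. Of the 173 named genes, all kept their direction and 159 their side of the threshold without each library. Those that lost the call without at least 1 library are TCP2, TCP3, TCP22, TCP23, MPK15, NCED5, CYP707A2, MAN1, TIP1;1, TIP1;2, LOX3, ARR8, TT5 and F3H. Deviations of imbibed libraries with the same replicate number correlated at 0.33, -0.0131 and -0.222 for numbers 1, 2 and 3. The highest correlation of each tcp14-labelled library with a wild-type library of another number was -0.17, 0.408 and 0.207. Libraries numbered 1 thus went together, and those numbered 2 and 3 did not. What the numbers mark was not tested. A replicate block gave 10136 calls and changed no named call.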

Other observations

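Genes with no pair in 1 of the imbibed groups and a mean of at least 1 CPM in the other were chosen after their values were seen. Genes below that level are left out, such as AT3G47675, with 0 in imbibed tcp14-labelled and a mean of 0.878 CPM in imbibed wild-type seeds. Of the genes at or above it, no pair was counted in imbibed tcp14-labelled libraries for PLC8, AT3G29776, AT5G34871, AT3G42806, AT3G29120 and AT3G32925. AT3G29776 averaged 6.19 ± 0.632 CPM in imbibed wild-type seeds (SD, n = 3). By the same rule, no pair was counted in imbibed wild-type libraries for AT3G60950, 5PTASE11 and AT1G25988. 5PTASE11, an inositol polyphosphate 5-phosphatase, averaged 1.72 ± 0.158 CPM in imbibed tcp14-labelled seeds. Of these 9 genes, 6 lie on chromosome 3, 2 on chromosome 1 and 1 on chromosome 5. AT3G47680, 7 loci from TCP14, averaged 0.121 ± 0.164 CPM in imbibed tcp14-labelled and 37.6 ± 4.45 CPM in imbibed wild-type seeds, and 0.0537 ± 0.0491 CPM in dry tcp14-labelled and 35.0 ± 3.27 CPM in dry wild-type seeds. UMAMIT44, an amino acid transporter family member on chromosome 3, had 0.220, 0.0945 and 0.553 CPM in imbibed tcp14-labelled seeds, against 9.48, 8.66 and 9.20 CPM in imbibed wild-type seeds, and no pair in the 6 dry libraries of these lines. The heat shock element core GAANNTTC was found before 25.0% of 16 small heat shock protein genes and 9.29% of tested genes.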
